A study of Mus musculus with 6 samples.

Results

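Leucine, isoleucine and valine lose their amino group and are decarboxylated by shared enzymes, and each is then broken down in the mitochondrial matrix by enzymes of its own. The 9 genes described here encode those later enzymes: Ivd, Mccc1, Mccc2 and Auh for leucine, Acadsb for isoleucine, and Acad8, Hibch, Hibadh and Aldh6a1 for valine. They were selected by gene symbol, and all 9 had a row among the 23185 genes with 1 symbol on the arrays. The set was proposed with the knockout minus wild type differences of these same arrays known. Those differences, and the calls made from them, are therefore given as a description and support nothing.

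Heart samples came from FVB mice (an inbred albino strain) with a CRISPR/Cas9 knockout of irisin, 3 arrays, and from wild type FVB mice, 3 arrays. Fndc5 encodes a membrane protein whose outer portion is released as the hormone irisin. Zygotes had received Cas9 mRNA and 5 guide RNAs, and controls were litter mates. Neither the deleted part of Fndc5 nor the number of founder animals is given in the sources used here. All animals ate a chow with 10% fat for 24 weeks, and their sex and exact age are not stated. The labels name the material both as cardiomyocytes and as myocardium, and leave unstated whether each array stands for a separate animal, so p-values rest on the spread between arrays, part or all of which may be technical. From the series title, the question was how a lack of irisin bears on insulin resistance, heart function and ischaemic injury.

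Values are RMA levels on a log2 scale, with array medians over the named genes of 2.23 to 2.25 in the knockout and 2.33 to 2.36 in wild type. The SD over the same genes was 2.14 to 2.16 on knockout arrays and 2.01 to 2.07 on wild type arrays. The part of this wider knockout scale in the differences was not tested. Precision is limited by 3 arrays per group. Fndc5 read 7.68, 5.49 and 5.45 on knockout arrays 1, 2 and 3, against 8.42, 8.40 and 7.83 on wild type arrays 1, 2 and 3. Relative to the wild type mean, Fndc5 was 1.45-fold lower on knockout array 1, 6.63-fold lower on array 2 and 6.82-fold lower on array 3. The difference was -2.01 (SE 0.54, limma adjusted p = 0.0359), and a two-sided exact permutation test over the arrays gave p = 0.1, which is the lowest value possible with 3 arrays against 3. Without any 1 of knockout arrays 2 and 3 or wild type arrays 1 to 3 the adjusted p was 0.0617 to 0.133. Counts among the 9 genes are also given without knockout array 1. In the fit across all genes (limma, Benjamini-Hochberg threshold 0.05), 10.4% of genes were called higher and 6.18% lower in the knockout. After centring each array on its median, 75.4% of all calls were higher, against 62.8% on the deposited values, and the median of all genes shifted by 0.1.

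The 3 pathways share a layout. A flavin-dependent acyl-CoA dehydrogenase acts first (Ivd for leucine, Acadsb for isoleucine, Acad8 for valine) and hands electrons to the electron transfer flavoprotein. In the leucine pathway the biotin-dependent 3-methylcrotonyl-CoA carboxylase, built from Mccc1 and Mccc2 subunits, and the hydratase Auh follow, and the products are acetyl-CoA and acetoacetate. In the valine pathway Hibch releases free 3-hydroxyisobutyrate, Hibadh oxidises it and Aldh6a1 makes propionyl-CoA. The heart oxidises branched-chain amino acids alongside its main fuels, fatty acids and glucose.

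Levels of all 9 genes averaged higher in the knockout, by 0.35 to 1.60 log2 units. The median difference was 0.74, against -0.05 over all genes. Of the 9, 7 were called higher (the all-gene share is 10.4%) and 0 lower. These were Ivd, Auh, Acadsb, Acad8, Hibch, Hibadh and Aldh6a1. The same 7 had all 3 knockout arrays above all 3 wild type arrays, which was so for 17.2% of all genes. Both subunits of the leucine carboxylase, Mccc1 and Mccc2, were not called and had overlapping groups. If the material was pieces of heart, a change in the share of a cell type and a change in RNA per cell could not be told apart.

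**Figure D1:**
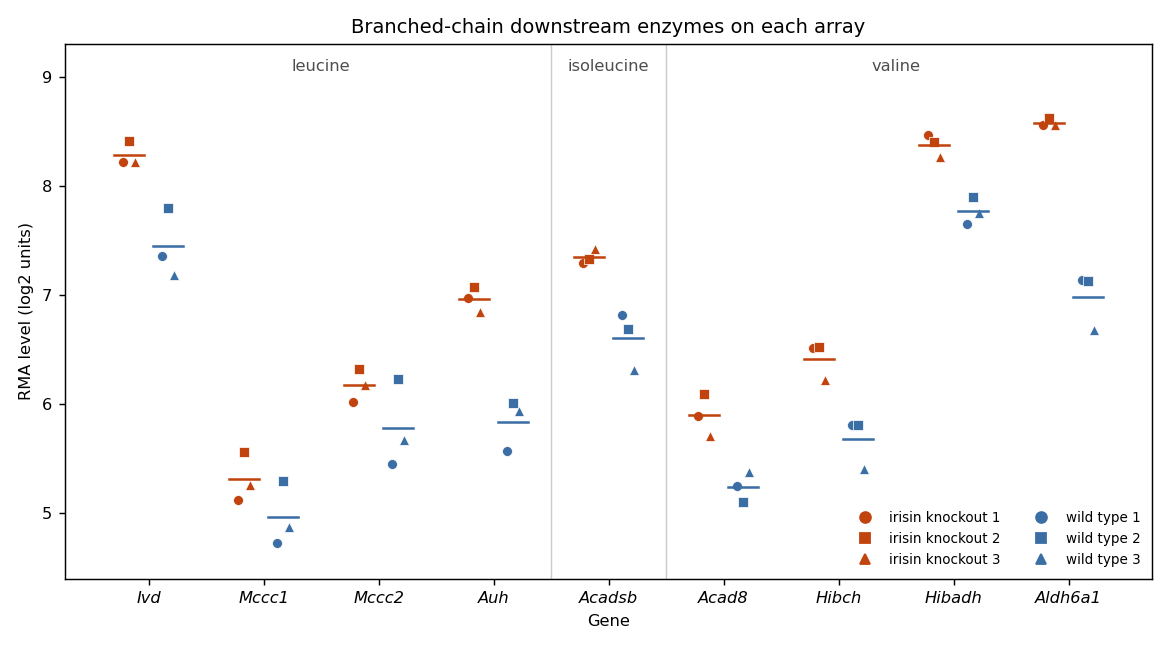
RMA level (log2 units) of the 9 enzyme genes on each array, with irisin knockout arrays in orange left of wild type arrays in blue, the replicate number as the symbol and the group mean as a bar. Knockout and wild type points do not overlap for 7 genes, and for Mccc1 and Mccc2 wild type array 2 lies among the knockout points.

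The first step of leucine breakdown after decarboxylation is catalysed by isovaleryl-CoA dehydrogenase, the product of Ivd. Ivd read 8.22, 8.41 and 8.22 on the knockout arrays, against 7.36, 7.80 and 7.18 on the wild type arrays. The lowest knockout array stood 0.42 above the highest wild type array. Group means were 8.28 ± 0.11 for knockout arrays and 7.45 ± 0.32 for wild type arrays (SD, n = 3 each), a difference of 0.83 (SE 0.17) or 1.78-fold.

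Mccc1 encodes the biotin-carrying subunit of 3-methylcrotonyl-CoA carboxylase and Mccc2 its other subunit. Mccc1 read 5.12, 5.56 and 5.26 in the knockout, against 4.73, 5.30 and 4.87 in wild type. Mccc2 read 6.02, 6.32 and 6.18 in the knockout, against 5.45, 6.23 and 5.67 in wild type. For both genes wild type array 2 lay above knockout arrays 1 and 3, and array 2 was the highest of its group in each genotype. The differences were 0.35 (SE 0.18) for Mccc1 and 0.39 (SE 0.20) for Mccc2, the smallest of the 9. Without wild type array 2 they were 0.51 and 0.62, and Mccc2 was then called higher while Mccc1 was not.

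Auh encodes 3-methylglutaconyl-CoA hydratase, a matrix enzyme that also binds AU-rich RNA. Its levels were 6.97, 7.07 and 6.84 in the knockout, against 5.57, 6.01 and 5.94 in wild type. The groups were 0.82 apart at their nearest arrays, and the difference of 1.12 (SE 0.15), or 2.17-fold, was the largest among the leucine enzymes. Along the leucine pathway the differences were thus uneven: 0.83 at the dehydrogenase, 0.35 and 0.39 at the carboxylase subunits and 1.12 at the hydratase. Differences between steps were not tested, since the set was chosen with them known.

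Acadsb, the short/branched-chain acyl-CoA dehydrogenase, acts on the isoleucine product 2-methylbutyryl-CoA. It read 7.29, 7.33 and 7.42 in the knockout, against 6.82, 6.69 and 6.31 in wild type. All knockout values lay within a narrow band above the wild type values, with a nearest gap of 0.47. The difference was 0.74 (SE 0.15), or 1.67-fold.

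The valine enzymes were all called higher. Acad8, isobutyryl-CoA dehydrogenase, read 5.89, 6.09 and 5.71 in the knockout, against 5.25, 5.10 and 5.38 in wild type. Its nearest arrays were 0.33 apart, the narrowest gap among the 7 genes whose groups did not overlap, and its difference was 0.65 (SE 0.14). Acad8 was also the only one of the 9 whose SD was larger in the knockout (0.19) than in wild type (0.14).

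Hibch, the hydrolase that frees 3-hydroxyisobutyrate from its CoA ester, read 6.51, 6.52 and 6.22 in the knockout, against 5.81, 5.81 and 5.41 in wild type. Replicate 3 was the lowest array of each group, and the groups were 0.42 apart. Hibadh, the dehydrogenase of 3-hydroxyisobutyrate, read 8.47, 8.40 and 8.26 in the knockout, against 7.65, 7.90 and 7.75 in wild type. The difference was 0.74 (SE 0.15), or 1.68-fold, for Hibch and 0.61 (SE 0.12), or 1.53-fold, for Hibadh, with 0.36 between the nearest arrays of the groups for Hibadh.

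Aldh6a1 encodes methylmalonate semialdehyde dehydrogenase, the last of the valine enzymes described here. It read 8.56, 8.62 and 8.56 in the knockout, against 7.14, 7.13 and 6.68 in wild type. The nearest arrays of the groups were 1.42 apart, the widest gap of the 9 genes. Means of 8.58 ± 0.04 for knockout arrays and 6.98 ± 0.26 for wild type arrays (SD, n = 3 each) gave a difference of 1.60 (SE 0.15), or 3.03-fold. In size and sign this difference ranked within the top 0.664% of all genes, against 2.57% for Auh and 16.2% for Mccc1.

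Spread within a group was smaller in the knockout for 8 of the 9 genes. The SD ran from 0.04 to 0.22 in the knockout (median 0.11) and from 0.13 to 0.40 in wild type (median 0.26). This is not particular to the 9 genes. Over all genes the knockout arrays were also closer to each other (correlations 0.9913 to 0.9928) than the wild type arrays (0.9795 to 0.9819). Knockout array 2 was the highest knockout array for 7 of the 9 genes and wild type array 2 the highest wild type array for 6. How often these orders held over all genes was not counted. The mean over the 9 genes was 7.01, 7.15 and 6.96 on knockout arrays 1, 2 and 3, against 6.20, 6.44 and 6.13 on wild type arrays 1, 2 and 3.

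The 9 genes lie in the brighter part of the arrays, where calls of higher levels were more frequent. With all genes ranked by mean level into 10 equal parts, Ivd, Auh, Acadsb, Hibadh and Aldh6a1 fell in the brightest part, in which 34.5% of genes were called higher and the median difference was 0.27. Mccc1, Mccc2, Acad8 and Hibch fell in the part below it, in which 25.5% were called higher and the median was 0.14. Each of the 9 differences lay above the median of its own part. The part that level plays in the members' differences was not tested.

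**Figure D2:**
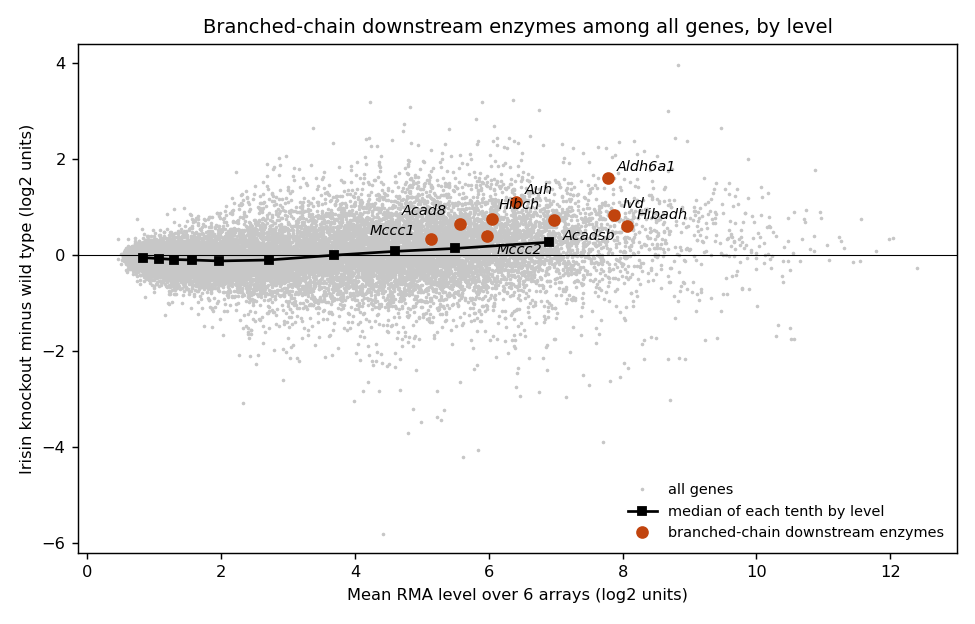
Knockout minus wild type difference (log2 units) against mean RMA level over the 6 arrays (log2 units) for all 23185 genes in grey, with the 9 enzyme genes in orange and the median of each of 10 equal parts of the genes by level as black squares. The 9 genes lie at 0.35 to 1.60, above black squares of 0.14 and 0.27 in the brightest parts.

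Fewer of the 9, and fewer of all genes, were called when a knockout array was left out. Without knockout array 1, 4 of the 9 were called higher (Ivd, Auh, Acadsb and Aldh6a1) and 6.62% of all genes. Without knockout array 2, 3 of the 9 were (Auh, Acadsb and Aldh6a1) and 6.05% of all genes. Leaving out knockout array 3 ended the call of Acadsb, with 7.59% of all genes called higher. Without both arrays numbered 1, 3 genes were called, again Auh, Acadsb and Aldh6a1, against 7.63% of all genes, and the median difference was 0.76. After quantile normalization 5 were called, with Ivd (difference 0.58) and Hibadh (0.34) no longer among them, against 8.13% of all genes, and the median difference was 0.51. Auh and Aldh6a1 were called under all 18 alternative settings run, and the difference was above 0 for every one of the 9 genes in all 18.

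**Figure D3:**
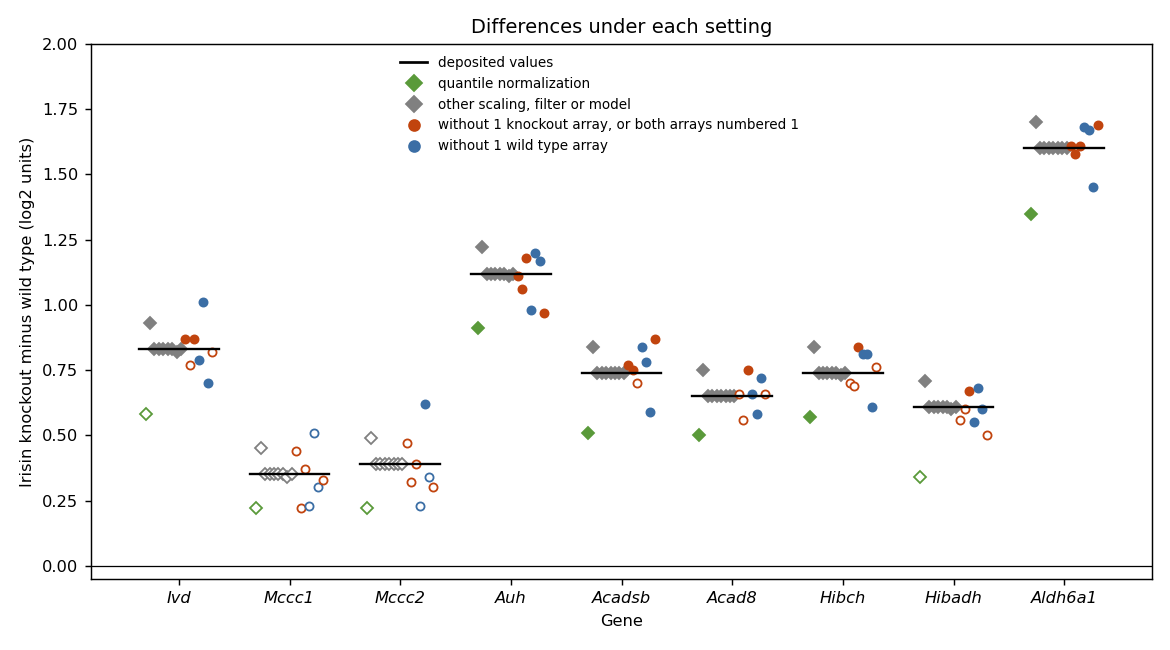
Knockout minus wild type difference (log2 units) of each gene under 16 of the alternative settings, with the value on the deposited data as a black line and open symbols where the gene was not called at an adjusted p of 0.05. All values lie above 0, quantile normalization gives the lowest or a tied lowest value for each gene, and only Auh and Aldh6a1 have no open symbol.

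Markers of other cell types differed between the groups as well. Over all genes 6.18% were called lower and 10.4% higher. Of 8 fibroblast markers 5 fell and 0 rose, with list means of 6.28 to 6.51 across the knockout arrays and 7.07 to 7.89 across wild type. Of 6 smooth muscle markers 5 fell and 0 rose (4.96 to 5.43 in the knockout, 6.59 to 8.58 in wild type), and of 6 endothelial markers 2 fell (6.95 to 7.21 in the knockout, 7.54 to 7.68 in wild type). Among 6 macrophage markers 1 fell (4.28 to 4.37 in the knockout, 4.45 to 4.60 in wild type). The cardiomyocyte list stood at 11.07 to 11.13 in the knockout and 10.74 to 11.19 in wild type, with 1 of 10 markers higher, so the labelled cell type was present in both groups. Adipocyte markers were low in both, at 1.85 to 2.07 in the knockout and 1.74 to 2.36 in wild type, close to the array medians, and 0 of 5 measured were called. Erythroid markers, 2 measured and 0 called, averaged 2.59 to 3.15 in the knockout and 3.01 to 5.07 in wild type. Wild type array 2 had the lowest fibroblast and smooth muscle means among the wild type arrays, and the highest erythroid mean (5.07). It had the highest wild type level for 6 of the 9 enzyme genes. Knockout array 2 had the highest knockout level for 7 of the 9. Its smooth muscle mean (4.96) was the lowest of the knockout arrays, but its fibroblast (6.51) and erythroid (3.15) means were the highest. The part of cell composition in the enzyme genes' differences was not tested.

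Promoter sequences of some of the genes are shown, to let their start regions be compared. They include those of Mccc1 and Mccc2, which were not called, and leave out Acadsb, Acad8 and Hibadh, which were called higher. RefSeq gave a window for all 9 (GRCm38.p6, 250 bases before to 50 after the start, 300 in all), and for Aldh6a1, which has 2, the one nearest the annotated gene start was used. The 4 motifs searched on both strands were chosen after the sequences were seen. They were CCAAT (the CCAAT box), GGGCGG (the GC box), AAGGTCA (the core of the oestrogen-related receptor site) and the core of the nuclear respiratory factor site. The windows were chr2:118861744-118862043 on the plus strand for Ivd, chr12:84450975-84451274 on the minus strand for Aldh6a1 and chr3:36000629-36000928 on the minus strand for Mccc1. For the other 3 they were chr13:100015590-100015889 on the minus strand for Mccc2, chr13:52929628-52929927 on the minus strand for Auh and chr1:52844788-52845087 on the plus strand for Hibch. Each is given 5′ to 3′ in the direction of transcription, with capitals on CCAAT and GGGCGG and on their reverse forms ATTGG and CCGCCC.
Ivd: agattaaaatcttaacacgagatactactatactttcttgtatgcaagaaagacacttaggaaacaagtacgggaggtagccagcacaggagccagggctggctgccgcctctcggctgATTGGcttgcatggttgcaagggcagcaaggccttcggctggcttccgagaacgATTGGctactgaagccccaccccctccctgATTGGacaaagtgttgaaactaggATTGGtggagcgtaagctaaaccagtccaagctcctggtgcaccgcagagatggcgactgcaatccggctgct
Aldh6a1: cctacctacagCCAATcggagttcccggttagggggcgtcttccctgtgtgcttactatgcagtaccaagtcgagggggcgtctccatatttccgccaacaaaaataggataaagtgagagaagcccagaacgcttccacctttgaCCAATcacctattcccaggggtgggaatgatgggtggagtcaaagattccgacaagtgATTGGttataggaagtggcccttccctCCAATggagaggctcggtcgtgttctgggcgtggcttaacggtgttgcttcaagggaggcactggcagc
Mccc1: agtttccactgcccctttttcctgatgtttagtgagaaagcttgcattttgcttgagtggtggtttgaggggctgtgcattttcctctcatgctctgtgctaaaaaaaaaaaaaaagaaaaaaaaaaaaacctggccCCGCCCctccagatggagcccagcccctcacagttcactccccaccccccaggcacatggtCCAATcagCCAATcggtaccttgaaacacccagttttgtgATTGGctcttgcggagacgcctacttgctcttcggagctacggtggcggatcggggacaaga
Mccc2: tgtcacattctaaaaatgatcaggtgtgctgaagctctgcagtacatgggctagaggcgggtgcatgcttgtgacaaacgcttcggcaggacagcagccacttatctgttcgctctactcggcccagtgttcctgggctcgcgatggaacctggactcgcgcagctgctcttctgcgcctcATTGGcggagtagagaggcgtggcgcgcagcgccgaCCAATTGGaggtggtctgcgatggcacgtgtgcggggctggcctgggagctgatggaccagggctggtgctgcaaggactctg
Auh: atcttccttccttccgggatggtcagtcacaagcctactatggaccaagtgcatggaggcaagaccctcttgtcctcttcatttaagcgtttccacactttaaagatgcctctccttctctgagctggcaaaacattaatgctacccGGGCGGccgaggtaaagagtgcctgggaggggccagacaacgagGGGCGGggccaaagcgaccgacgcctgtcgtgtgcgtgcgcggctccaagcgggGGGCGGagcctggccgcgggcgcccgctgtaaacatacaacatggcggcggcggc
Hibch: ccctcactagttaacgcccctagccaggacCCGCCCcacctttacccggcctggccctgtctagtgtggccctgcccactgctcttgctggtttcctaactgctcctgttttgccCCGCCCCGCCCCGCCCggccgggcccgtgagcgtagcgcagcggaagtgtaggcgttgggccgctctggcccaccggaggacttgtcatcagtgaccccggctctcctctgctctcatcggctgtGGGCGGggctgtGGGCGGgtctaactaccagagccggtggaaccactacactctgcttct

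At least 1 CCAAT lay in the windows of 6 of the 9 genes, against 37.4% of all 32851 windows, and at least 1 GGGCGG in another overlapping group of 6, against 35.7%. At a cut of 3 copies, set with the sequences known and with overlapping matches counted separately, the 9 genes fell into 2 groups without overlap. At 1 copy or more, Mccc1, Acad8 and Hibadh held both motifs. Ivd, Mccc1, Mccc2 and Aldh6a1 each held 3 or more CCAAT, found in 3.37% of all windows, with 4 copies each in Ivd and Aldh6a1 (1.06%). The copies nearest the start in Mccc2 overlap each other on opposite strands, and Mccc2 reaches 3 only by counting both. Auh, Acadsb, Acad8, Hibch and Hibadh each held 3 or more GGGCGG, found in 10.7% of all windows, with 6 copies in Hibch. The copies nearest the start in Acad8 share a base, and Acad8 too reaches 3 only by counting both. The CCAAT group held both the gene with the largest difference (Aldh6a1, 1.60) and the 2 genes not called (Mccc1 and Mccc2). Hibadh alone held the nuclear respiratory factor core (4.6% of all windows), and 0 of the 9 held AAGGTCA (4.72%). These are matches of letters within a short window, not measured binding.

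The other genes of branched-chain breakdown were taken from lists written with earlier results of these data known. Beside each list count stands the all-gene share of 10.4% called higher and 6.18% lower. In the brightest part by level, where many listed genes lie, 34.5% of genes were called higher. The part of level in the list counts was not tested. Upstream of the 9, 5 of 11 genes of uptake, transamination and the branched-chain ketoacid dehydrogenase rose and 0 fell (median difference 0.37). The dehydrogenase subunits Dbt and Bckdhb rose 3.02-fold and 2.94-fold (limma adjusted p = 0.000221 and 0.000629). Dld, the subunit shared with other dehydrogenases, rose 1.59-fold and Bckdk, the inhibitory kinase, 2.38-fold (limma adjusted p = 0.0136 and 0.00366). The remaining subunit, Bckdha, differed by 0.25 and did not pass. The phosphatase Ppm1k was also called higher, at 1.91-fold (limma adjusted p = 0.0183). The count was 3 without knockout array 2 or 3, or without both arrays numbered 1, and Dld lost its call in each of these settings. After quantile normalization Dld differed by 0.39 and also lost its call (adjusted p = 0.0838).

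Steps that the pathways share, or that lie after the 9 enzymes, rose for 6 of 10 measured genes and fell for 0. The median difference was 0.74, and 10.4% of all genes were called higher. Acat1, the thiolase that ends isoleucine breakdown, read 10.22, 10.17 and 10.07 in the knockout, against 8.70, 8.82 and 8.44 in wild type, a 2.82-fold rise (limma adjusted p = 0.000475). Propionyl-CoA from isoleucine and valine is handled by propionyl-CoA carboxylase (Pcca and Pccb), the epimerase Mcee and the cobalamin-dependent mutase Mmut. Pcca rose 1.80-fold, Mcee 2.56-fold and Mmut 2.20-fold (adjusted p = 0.00529, 0.00688 and 0.00305). By contrast, the hydratase Echs1, which acts in both the isoleucine and valine pathways, differed by 0.46 and the isoleucine dehydrogenase Hsd17b10 by 0.19, and neither passed.

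**Figure D4:**
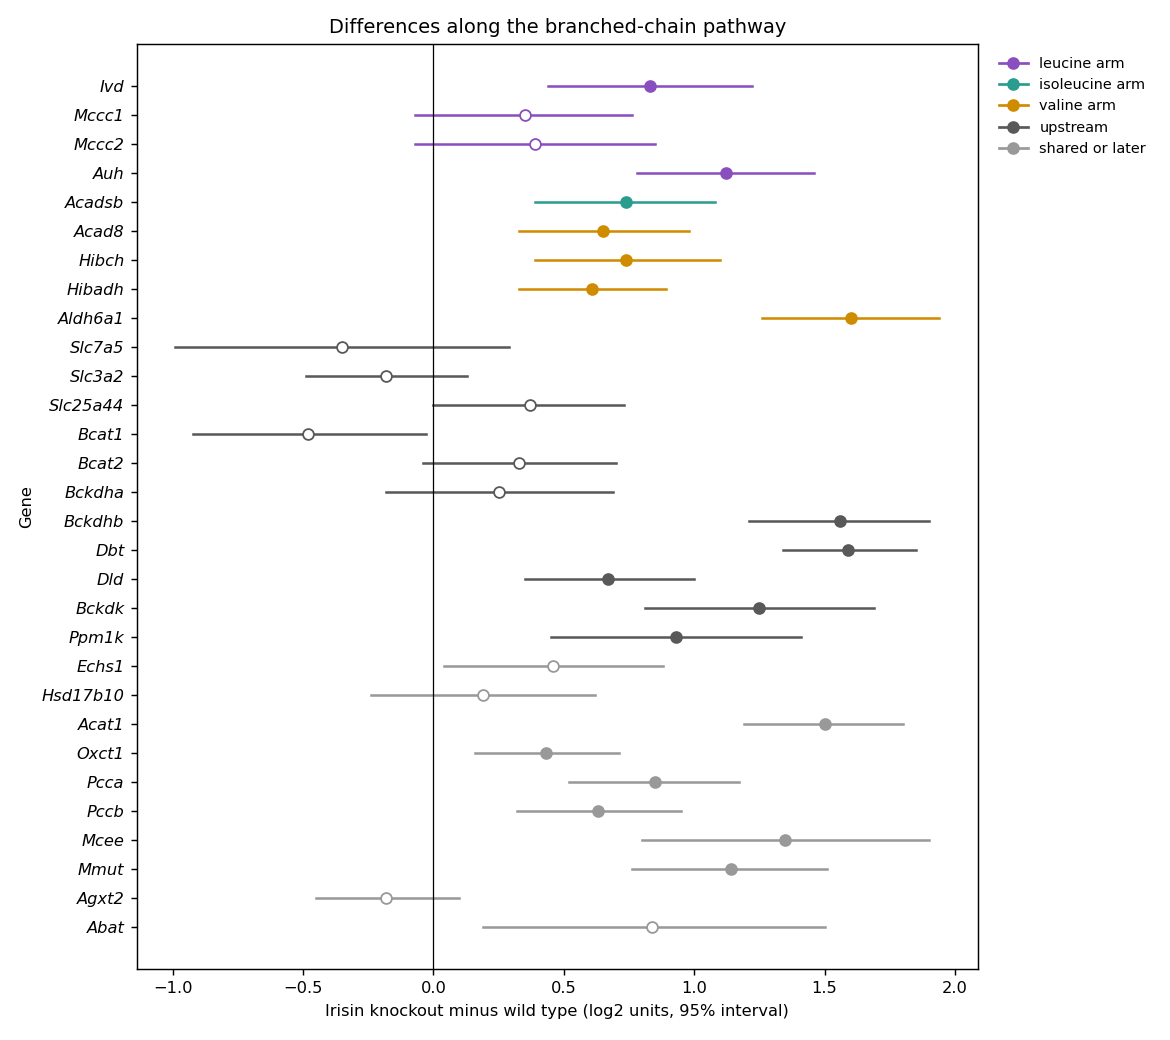
Knockout minus wild type difference (log2 units) with its 95% interval from limma for the 9 enzyme genes by pathway (coloured), the upstream genes (dark grey) and the shared or later genes (light grey), with filled circles for genes past the adjusted threshold of 0.05. Both carboxylase subunits lie at 0.35 and 0.39 with intervals that include 0, between Ivd at 0.83 and Auh at 1.12.

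Partners of the dehydrogenase step were mixed. Among 10 genes of electron transfer and cofactor supply, 3 rose and 0 fell (median 0.28). Over all genes 10.4% were called higher, and 34.5% in the brightest part by level, where the 3 that rose lay. Etfdh, which passes electrons from the flavoprotein to ubiquinone, read 10.20, 10.26 and 10.05 in the knockout, against 9.03, 9.41 and 8.99 in wild type, a 2.04-fold rise (limma adjusted p = 0.0027). The flavoprotein's own subunits did not pass: Etfa differed by 0.13 and Etfb by -0.56. Rfk and Flad1, which make the flavin cofactors, rose 2.63-fold and 1.50-fold (adjusted p = 0.00322 and 0.0295). Flad1 lost its call without knockout array 1 or 2 or wild type array 1 or 3 (adjusted p up to 0.116), after quantile normalization (0.109) and without both arrays numbered 1 (0.154).

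Relatives of the 9 enzymes were compared by family. Of 9 other acyl-CoA dehydrogenases, 6 rose and 0 fell (median 0.59), against 10.4% of all genes called higher. Acad11, an enzyme of long-chain acyl-CoA, rose 2.86-fold, Acadm and Acadl, the medium-chain and long-chain enzymes of fatty acid oxidation, 1.87-fold and 1.53-fold, and Acad12 2.00-fold (limma adjusted p at most 0.00989). The 3 branched-chain dehydrogenases Ivd, Acadsb and Acad8, at 1.78-fold, 1.67-fold and 1.57-fold, lay within that range. Without both arrays numbered 1, 3 of these relatives were called, and Acadl was not (adjusted p = 0.073).

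Biotin-dependent carboxylases related to Mccc1 and Mccc2 were mixed. Pcca rose as given above and Pccb rose 1.55-fold (limma adjusted p = 0.0163), and 2 of the 4 measured did not pass: Acaca differed by -0.72 and Acacb by 0.02. Hlcs, which attaches biotin to these carboxylases, differed by 0.59 and did not pass. Pccb lost its call without knockout array 2 or wild type array 3 (adjusted p up to 0.0683), after quantile normalization (0.0555), and without both arrays numbered 1. Among 11 hydratase and isomerase relatives of Auh and Hibch, 6 rose and 0 fell (median 0.76), against 10.4% of all genes called higher. The lowest p-values were those of Ehhadh at 0.89, Hadha at 0.94, Eci2 at 1.32 and Echdc3 at 1.17 (limma adjusted p at most 0.00341).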

How the data were processed

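Total RNA of 6 mouse heart samples was extracted with TRIzol and biotin labelled for Affymetrix arrays (labels' protocols). What the authors deposited is a table of log2 RMA summaries, and the submitters' processing notes name RMA, affy 1.61.0 and R 3.6.0. The log2 scale was inferred from their range (0.093 to 12.96). The probe set definition is not given in the sources used here, and no detection calls were used. Of 25206 rows, 23185 had 1 gene symbol in the platform annotation, 0 had several, and 2021 had none and stayed out of the tests.

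Groups and replicate numbers came from the sample titles. All named genes were fitted at once with limma 3.58.1 (lmFit and eBayes, R 4.3.3), genotype as the only term, two-sided, Benjamini-Hochberg over all genes, threshold 0.05, with no filter on dim genes. The code was tested on simulated data. Differences are in log2 units, knockout minus wild type, and a fold is the antilog. Named are the 9 genes, Fndc5, in each list the genes past the threshold (at most 4 by p), and the 5 genes most correlated with the gene of largest difference. Genes outside this rule are named where a single value is set beside the 9 or beside a named gene of the same list. The 9 genes, the lists and the tests were chosen with earlier results of these data known. Same-numbered arrays deviated together only weakly (correlations 0.048 to 0.09 across genes, against -0.119 to 0.055 for arrays of unlike number). Numbers were therefore not treated as pairs in the main fit. Alternatives were other scalings, filters, variance models, thresholds, a replicate block and leaving out arrays. Promoters came from a RefSeq table (GRCm38.p6). Plots used matplotlib 3.10.9 in Python 3.11.15.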

Additional observations from a re-analysis of the deposited data

How the results depend on the processing

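The 9 genes were higher in the knockout under all 18 alternatives, 0 were called lower in any, and their median difference ran from 0.51 (quantile normalization) to 0.84 (centring on the median), with 0.61 to 0.79 over the fits that leave out 1 array. Genes among the 9 called higher numbered 2 at a threshold of 0.01, 3 without both arrays numbered 1, and 3 to 8 over the fits without 1 array, the lowest without knockout array 2 and the highest without wild type array 2. With the replicate number as a block (replicate block), 7 of the 9 were called, as without it. Over all genes, calls numbered 1256 higher and 528 lower at 0.01 and 2212 lower at 0.10. Leaving out 1 array gave 1403 to 2570 higher and 701 to 1593 lower, and leaving out both arrays numbered 1 gave 938 lower. Scaling moved the share of calls that were higher from 62.8% to 75.4% after centring and 55.2% after quantile normalization. On the deposited values 10.4% of all genes were called higher, and 34.5% in the brightest part by level, where many pathway genes lie. Beside that, the 81 distinct pathway genes held 34 called higher (23 to 38 over the 18 alternatives) and 1 called lower, Aldh1a1. The part of level in that count was not tested. The count called lower was 4 after quantile normalization and at 0.10, and 2 without the dimmest 30% or 50%, with a robust variance model or with array weights. It was 0 after centring, with a variance trend, with the replicate block, at 0.01 and without both arrays numbered 1, and 0 to 3 without 1 array. Fndc5 kept its difference of -2.01 but not its call with a robust variance model (adjusted p = 0.0635) or at 0.01, and lay between -2.75 and -1.63 without 1 array. Why these values moved was not tested, beyond the fewer arrays of the fits that leave some out. Array precision at 3 per group limits small differences, and no detection calls were available to set signal against background.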

Other observations

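Aldehyde dehydrogenases other than Aldh6a1 were divided. Of 17 measured, 4 rose, 1 fell and 12 did not pass (median difference 0.06). Over all genes 10.4% were called higher and 6.18% lower. The mitochondrial enzyme Aldh2, which clears acetaldehyde and lipid aldehydes, rose 2.86-fold to 8.87 ± 0.19 in the knockout, against 7.35 ± 0.39 in wild type (SD, n = 3 each; limma adjusted p = 0.00216). Aldh4a1 of proline breakdown and Aldh5a1 of GABA breakdown, also mitochondrial, rose 2.00-fold and 1.61-fold (adjusted p = 0.00754 and 0.00728). Aldh3a2, a fatty aldehyde dehydrogenase, rose 1.48-fold but lost its call without knockout array 2 (0.0571) and without both arrays numbered 1 (0.0695). The retinaldehyde enzyme Aldh1a1 fell (limma adjusted p = 0.0448), with 6.22 ± 0.08 on knockout arrays and 6.66 ± 0.15 on wild type arrays (SD, n = 3 each). Named after its values were seen, Aldh1a1 lost its call without any 1 of knockout arrays 1, 2 and 3 or wild type arrays 1 and 2 (adjusted p up to 0.153). It also lost it after centring, with a variance trend, with the replicate block and without both arrays numbered 1 (adjusted p up to 0.164).

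Among 12 transcriptional regulators of oxidative metabolism, 4 rose and 0 fell, against 10.4% of all genes called higher and 6.18% lower. All 12 lay in the brighter parts by level, in which 20.7% to 34.5% of genes were called higher, so the count is near that share. The oestrogen-related receptors Esrrg and Esrrb rose 2.17-fold and 1.68-fold, the retinoid X receptor Rxra 1.68-fold and Ppard 1.41-fold (limma adjusted p = 0.00274, 0.00827, 0.00585 and 0.0197). Their relatives Esrra, Ppara and Pparg differed by 0.09, 0.34 and -0.36 and did not pass. Ppard lost its call without knockout array 1 or 2 or wild type array 3 (adjusted p up to 0.0852), after quantile normalization (0.0617) and without both arrays numbered 1 (0.0783). Esrrb lost its call without both arrays numbered 1 (0.0546). Klf15, known in mice as an activator of branched-chain amino acid genes, differed by -0.20 and Ppargc1a, a coactivator of mitochondrial genes, by -0.40, and neither passed.

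The genes whose 6 values were most like those of Aldh6a1, among 11583 genes brighter than the median, were Fgfrl1, Dnajb5, Popdc3, Sh3bp5 and BC004004, with Pearson correlations of 0.9986 to 0.9996 over the 6 arrays. The points share the 2 groups, so the correlation carries the genotype difference, which was 0.52 for Dnajb5 and 1.65 for BC004004. All 5 had wild type array 3 as their lowest value, as Aldh6a1 did. They were picked for following its values on these arrays, so this is no further likeness.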
